A study of Triticum aestivum with 9 samples.

Results

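In filling grains of bread wheat, 291 transcripts of 288 genes were expressed at 20 °C and were higher at 30 °C and higher again at 40 °C, by at least 2-fold at each step. They were taken from 26495 expressed transcripts, out of 133744 transcripts of 107891 genes in the files. A transcript was a member when its FPKM (fragments per transcript, scaled for transcript length and library size) was at least 1 in each sample at 20 °C and its mean FPKM at least doubled from 20 to 30 °C and again from 30 to 40 °C. In addition, every sample at 30 °C had to lie above every sample at 20 °C, and every sample at 40 °C above every sample at 30 °C. Genes of chromosome groups 3 and 7 were left out of the rule. The members were thus chosen by the FPKM values of all 9 samples, and their levels and step sizes are given below as a description without a test.

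The plants were Triticum aestivum of the cultivar Chinese Spring, which carries the 3 subgenomes A, B and D. They were moved to 20 °C at 12 days after flowering, kept there for 3 days, and then held in the light for 1 h at 20 °C (control), 30 °C (mild heat stress) or 40 °C (severe heat stress). Grains of the main stem were sampled from 3 independent plants per temperature, with no transgene or mutant in any group. Each sample held between 15778561 and 19497182 expected counts. Replicate 3 at 40 °C stood apart from the other samples at 40 °C. It had 38710 transcripts above an FPKM of 1 against 41286 and 41327, and 38.6% of its counts fell on its 100 most abundant transcripts against 30.3% and 30.2%. A grain holds several tissues, so in these bulk samples more cells of a type and more RNA per cell cannot be told apart. The tissue was not checked against marker genes, because no source used here links the wheat identifiers to names.

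When plant cells are warmed, heat shock transcription factors are released from their repressed state and bind heat shock elements in the promoters of their target genes. Well known targets are molecular chaperones, which bind unfolded proteins and keep them from aggregating, and the response is fast and depends on how warm the tissue becomes. In hexaploid wheat most genes exist as 3 similar copies, one in each subgenome, which are called homoeologs. No role is given to any single transcript below, since the identifiers carry a chromosome, a subgenome and a gene number but no name.

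The members passed from ordinary to high levels within 1 h. The median FPKM of the members was 5.28, 5.38 and 4.88 in the 3 control samples. It was 23.9, 21.0 and 23.4 at 30 °C, and 74.8, 73.0 and 61.5 at 40 °C. The 3 temperatures did not overlap, which follows from the rule, and replicate 3 was the lowest sample at 40 °C. At 20 °C the members were close to the typical expressed transcript, with a median of the mean FPKM of 5.15 against 4.38 over the 26495. At 30 °C their median was 22.3 against 4.43, and at 40 °C it was 71.8 against 4.04. The member median thus stood at the 56.1 percentile of the expressed transcripts at 20 °C, at the 87.8 percentile at 30 °C and at the 96.0 percentile at 40 °C.

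**Figure D1:**
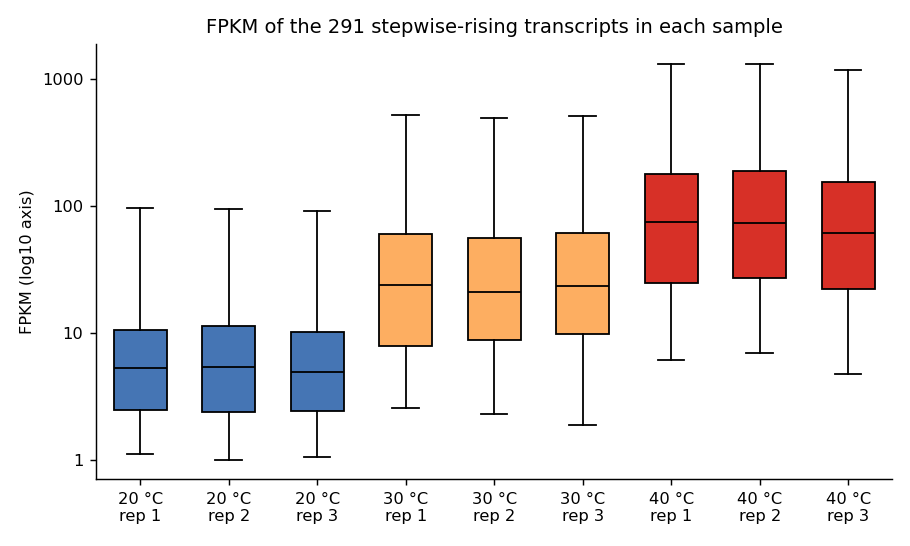
FPKM of the 291 members (vertical axis, log10) in each of the 9 samples (horizontal axis). The line in each box is the median, the box spans the quartiles and the whiskers reach the lowest and highest member. The medians lie at 4.88 to 5.38 at 20 °C, 21.0 to 23.9 at 30 °C and 61.5 to 74.8 at 40 °C.

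Together the members took up 0.239% ± 0.0128 (SD, n = 3) of all TPM, the length-corrected share of each transcript, at 20 °C. At 30 °C they took up 1.64% ± 0.0649 (SD, n = 3). At 40 °C the share had grown to 4.50% ± 0.533 (SD, n = 3). The single samples at 40 °C held 4.85%, 4.77% and 3.89%. The lowest of these was above the highest share at 30 °C, which was 1.69%. The rule had asked for this order in the FPKM of each member. No member had a mean FPKM of 100 or more at 20 °C, whereas 52 did at 30 °C and 117 at 40 °C. A mean FPKM of 500 or more was found for 1 member at 30 °C and for 30 at 40 °C. Despite this, none of the members was among the 100 most abundant transcripts at any of the 3 temperatures. The spread among replicates was moderate, where the median coefficient of variation was 13.9%, 8.92% and 12.4% at the 3 temperatures. Over all expressed transcripts it was 14.9%, 16.2% and 19.7%. The comparison is not like for like, since the rule left out overlapping samples and the members had higher levels in the heat.

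Each step of the rule was passed by a small share of the expressed transcripts, members included. Of the 26495 expressed transcripts, 817 (3.08%) at least doubled from 20 to 30 °C without overlap of the samples, and 572 (2.16%) did so from 30 to 40 °C. Both steps were passed by the 291 members, which are 1.10% of the expressed transcripts, 35.6% of those that passed the first step and 50.9% of those that passed the second. The first step alone was passed by 526 transcripts, whose median second step was 0.20 on the log2 scale. Of these 526, 313 were higher at 40 than at 30 °C by the mean, by less than 2-fold. Non-overlapping samples at both steps, whatever the size of the rise, were found for 1012 transcripts (3.82%). In chromosome groups 3 and 7, 136 of 10742 expressed transcripts (1.27%) would have passed the same rule.

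In edgeR's quasi-likelihood test, a differentially expressed transcript (DET) was one whose fold change exceeded 2 with an FDR, adjusted by Benjamini-Hochberg, under 0.05. By this criterion 270 of the 291 members were higher at 30 than at 20 °C, where 2.58% of all 45956 transcripts tested were called higher and 3.88% were called in either direction. Between 30 and 40 °C 287 members were called higher, against 3.02% of all transcripts tested (3.56% in either direction). Between 20 and 40 °C all 291 were called, against 7.54% (12.1% in either direction). The rule used the same contrasts, so these counts only describe the members. For 3 of the members named below the first step was not called and its fitted fold change was just under 2. For TraesCSU02G047300.1 it was not called at a fitted log2 fold change of 2.54.

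The first step was the larger one for most members. The median member was 4.30-fold higher at 30 than at 20 °C, 2.59-fold higher at 40 than at 30 °C and 11.8-fold higher over both steps. On the log2 scale the first step ran from 1.00 to 4.39, with quartiles at 1.46 and 2.97 and a median of 2.11. The second step ran from 1.00 to 3.48 and was more tightly gathered, with quartiles at 1.21 and 1.64 and a median of 1.37. In 225 members (77.3%) the first step was larger and in 66 the second, and in 67 members the steps lay within 0.25 of each other. A rise of at least 4-fold was seen in 153 members in the first step and in 26 in the second. A rise of at least 8-fold was seen in 71 and 4 members, and one of at least 16-fold in 10 and 0. With each sample at 30 °C divided by the mean at 20 °C, the median first step was between 2.10 and 2.20. With each sample at 40 °C divided by the mean at 30 °C, the median second step was between 1.21 and 1.51.

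The second step moved with the scaling of the libraries. Over all expressed transcripts the median second step was -0.18 on the log2 scale of FPKM and the median first step -0.01. Replicate 3 at 40 °C was the lowest of its group in 247 of the 291 members, and in 57.1% of all expressed transcripts. Its TMM factor was 0.832, against 0.999 and 1.00 in the other samples at 40 °C. After division by the TMM factors the member medians at 40 °C were 74.8, 72.7 and 73.9, and replicate 3 lay between the other samples. With the same 291 members and TMM-scaled FPKM, the median steps were 2.08 and 1.52, and the first step was larger in 204. Without replicate 3 at 40 °C the medians were 2.11 and 1.44, and the first step was larger in 216. Both were computed after the data had been seen.

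**Figure D2:**
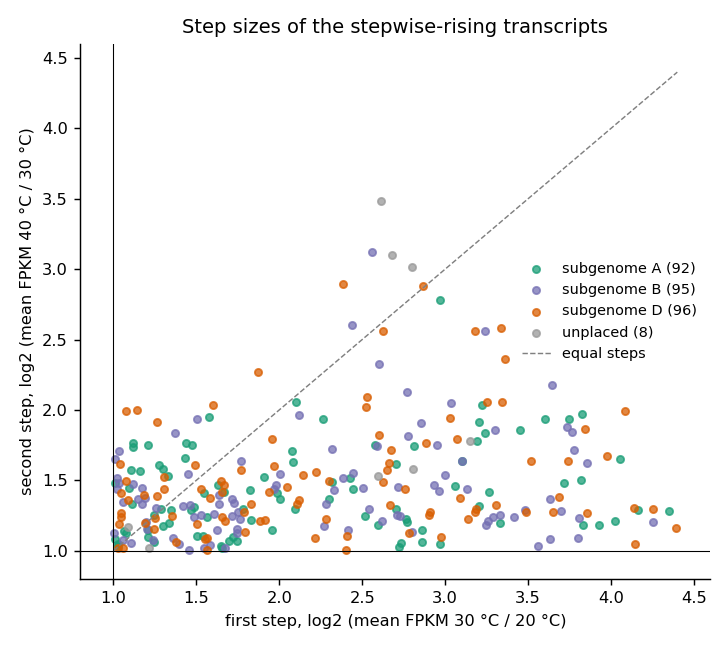
First step (horizontal axis, log2 ratio of mean FPKM at 30 to 20 °C) against second step (vertical axis, log2 ratio of mean FPKM at 40 to 30 °C), 1 point per member, coloured by subgenome. Solid lines mark the 2-fold limit of the rule and the dashed line equal steps. Of the 291 points, 225 lie below the dashed line.

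The sizes of the steps were weakly related across members. Pearson's r was 0.23 and Spearman's rho 0.23 over the 291 members, which share the 9 libraries and the value at 30 °C. The level at 20 °C was related to the first step with a rho of 0.29 and to the second with a rho of -0.16, and the first of these pairs shares the value at 20 °C. These coefficients describe members that the 2-fold limits had already selected.

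Members with a higher level at 20 °C had larger first steps. Among the 95 members with a mean FPKM below 3 at 20 °C the median steps were 1.66 and 1.47, and 59 had the larger first step. Among the 118 members between 3 and 10 the median steps were 2.29 and 1.37, with a larger first step in 94. Among the 78 members at 10 or more the median steps were 2.71 and 1.3, with a larger first step in 72. The median first step thus widened from class to class while the median second step narrowed slightly. At 40 °C the classes reached a median FPKM of 16.8, 66.6 and 370. Members made up 1.04%, 1.09% and 1.21% of the expressed transcripts in these classes, which are near the 1.10% over all.

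**Figure D3:**
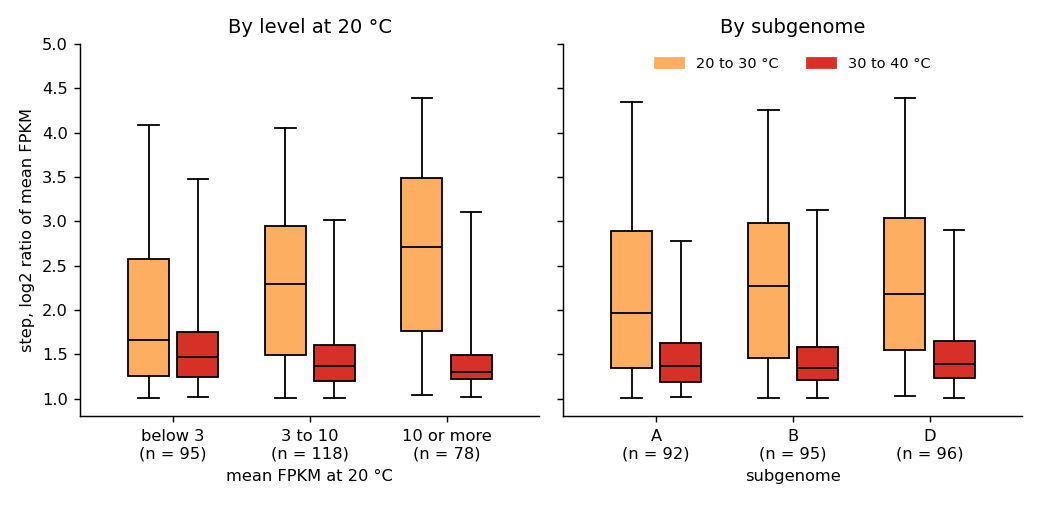
Log2 step (vertical axis) of the members by mean FPKM at 20 °C (left) and by subgenome (right), with the first step in orange and the second in red. Boxes span the quartiles around the median and whiskers reach the extremes. The median first step is 1.66, 2.29 and 2.71 in the classes of level, and 1.97, 2.27 and 2.18 in the A, B and D subgenomes.

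The subgenomes contributed about equally. The A subgenome held 92 members (31.6%), the B subgenome 95 (32.6%) and the D subgenome 96 (33.0%), and 8 members were on sequence not placed on a chromosome. Among the expressed transcripts the shares were 32.6%, 33.3% and 32.2%. The members were therefore 1.06%, 1.08% and 1.13% of the expressed transcripts of the A, B and D subgenomes. The median first step was 1.97 in A, 2.27 in B and 2.18 in D, and the median second step was 1.37, 1.34 and 1.39. The quartiles of the 3 subgenomes overlapped widely at both steps. The median FPKM at 40 °C was 65.3 in A, 66.2 in B and 77.2 in D, and the first step was larger in 70, 75 and 76 members. The 8 unplaced members had median steps of 2.65 and 1.68, with the first step larger in 4 of them. RSEM, which estimated the counts, had divided fragments among similar transcripts for all but 8 of the 291 members. These similar transcripts may include homoeologs, and the effect on the shares, levels and steps of the subgenomes was not tested.

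The chromosome groups differed more than the subgenomes. Group 4 held 76 members, which were 1.58% of its expressed transcripts, and group 6 held 61 (1.39%). Group 1 held 53 (1.08%), group 2 held 53 (0.881%) and group 5 held 40 (0.680%). Of the single chromosomes, 4D had the most members with 30, or 1.98% of its expressed transcripts. Group 4 also had the highest median first step among the groups, at 2.58, and the highest median FPKM at 40 °C, at 109.8. Its 76 members included 15 in runs of neighbouring genes, described below, whose median first step was 3.18. The other 61 lay outside the runs, and the groups were not compared without the runs. Group 2 had the lowest of both, at 1.66 and 44.1. These shares were not tested, because neighbouring and homoeologous genes are not independent of each other.

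The members with the highest FPKM at 40 °C had nearly the same profile. TraesCS4B02G212300.1 had an FPKM of 41.5, 44.3 and 34.0 at 20 °C, 518, 474 and 491 at 30 °C, and 1318, 1328 and 1180 at 40 °C. TraesCS6D02G322300.1 had 35.7, 35.1 and 34.9 at 20 °C, 524, 492 and 511 at 30 °C, and 1280, 1264 and 1134 at 40 °C. TraesCS4D02G213100.1 had 55.1, 58.1 and 49.8 at 20 °C, 518, 469 and 492 at 30 °C, and 1287, 1213 and 1080 at 40 °C. Their groups were far apart, and replicate 3 was the lowest sample of each at 40 °C. Their mean FPKM at 40 °C was 1276 ± 82.7, 1226 ± 80.0 and 1194 ± 105 (SD, n = 3), so these neighbours in rank lay within their replicate spread.

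TraesCS4B02G212200.1 had an FPKM of 47.9, 46.9 and 39.0 at 20 °C, 501, 465 and 461 at 30 °C, and 1164, 1157 and 1045 at 40 °C. TraesCS4A02G092900.1 had 24.8, 27.1 and 22.6 at 20 °C, 422, 379 and 411 at 30 °C, and 1001, 963 and 844 at 40 °C. TraesCS4D02G145500.1 had 20.4, 21.5 and 17.3 at 20 °C, 347, 340 and 358 at 30 °C, and 932, 886 and 760 at 40 °C. These transcripts repeated the same shape, with a steep first step and a second step not far above the 2-fold limit. Over all 6, the first step was between 9.08-fold and 17.7-fold and the second between 2.32-fold and 2.58-fold.

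The members with the largest rise over both steps had a mean FPKM between 1.69 and 6.66 at 20 °C, where the median over all members was 5.15. TraesCS5D02G266000.1 was at an FPKM of 2.42, 1.87 and 2.13 at 20 °C, at 36.3, 34.6 and 38.1 at 30 °C and at 141.8, 157.9 and 132.8 at 40 °C, which is a ratio of 67.4. TraesCS4D02G035800.1 was at 3.07, 3.49 and 3.05, then at 34.1, 29.0 and 34.1, and at 220.7, 204.9 and 156.4 at 40 °C, a ratio of 60.6. TraesCS6B02G456600.1 was at 2.74, 4.06 and 2.28, then at 33.9, 35.1 and 44.5, and at 170.4, 186.5 and 157.6 at 40 °C, a ratio of 56.7. In all 3 the first step was the larger one and the groups were widely separated.

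TraesCS5B02G245700.1 was at an FPKM of 4.46, 6.22 and 4.18 at 20 °C, at 46.4, 45.3 and 48.6 at 30 °C and at 279.5, 300.1 and 248.0 at 40 °C, a ratio of 55.7. TraesCSU02G164000.1 was at 5.35, 8.52 and 6.12, then at 45.6, 50.2 and 43.5, and at 389.9, 368.5 and 368.7 at 40 °C, a ratio of 56.4. Its steps of 6.97-fold and 8.09-fold were nearly equal, and its 3 samples at 40 °C were close together. TraesCSU02G047300.1 had the largest ratio, 68.4, and also the widest spread. Its FPKM was 2.86, 1.11 and 1.09 at 20 °C, 6.33, 4.92 and 19.7 at 30 °C, and 123.9, 151.7 and 70.6 at 40 °C. Replicate 3 was the highest of its samples at 30 °C and the lowest at 40 °C, and the smallest expected count behind its values at 20 °C was 7.58. Its second step of 11.2-fold was the largest of any member.

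**Figure D4:**
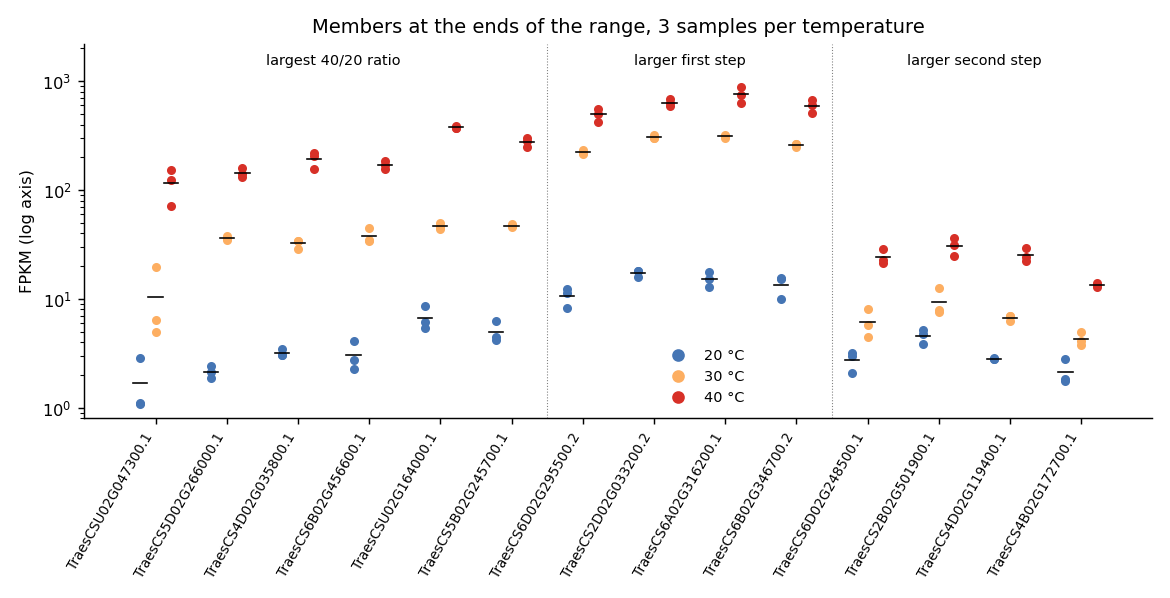
FPKM (vertical axis, log) of 14 members in the 9 samples, with 1 point per sample and a bar at the mean of each temperature. From left to right they are the 6 members with the largest ratio of 40 to 20 °C, 4 with a much larger first step and 4 with a larger second step. In the middle block the 30 °C points lie close below the 40 °C points, with first steps of 17.7-fold to 21.0-fold.

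Members at the 2 ends of the balance between the steps differed in level as well as in shape. Among members with a mean FPKM of at least 2 at 20 °C, the largest excess of the first step was that of TraesCS6D02G295500.2, with 11.3, 12.3 and 8.16 at 20 °C, 214.7, 218.9 and 233.3 at 30 °C, and 504, 561 and 426 at 40 °C. Its steps were 21.0-fold and 2.24-fold. TraesCS6B02G346700.2 was at 15.4, 15.1 and 10.0, then at 249.0, 262.9 and 262.6, and at 605, 666 and 514 at 40 °C, with steps of 19.1-fold and 2.30-fold. In this order, these transcripts had 90.9% and 91.5% of their gene's abundance at 20 °C and 95.6% and 96.8% at 30 °C. At 40 °C the shares were 82.8% and 86.0%. The other transcript of each gene was called higher at 40 than at 30 °C, at log2 fold changes of 3.47 and 3.66.

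TraesCS6A02G316200.1 was at an FPKM of 15.4, 17.6 and 12.9 at 20 °C, at 315, 298 and 321 at 30 °C and at 747, 888 and 635 at 40 °C, with steps of 20.4-fold and 2.43-fold. TraesCS2D02G033200.2 was at 18.2, 18.0 and 15.8, then at 321, 299 and 300.2, and at 686, 631 and 587 at 40 °C, with steps of 17.7-fold and 2.07-fold. These transcripts had thus reached an FPKM above 200 at 30 °C already. The SD of their log2 FPKM over the 3 samples at 30 °C was between 0.04 and 0.06.

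Within the same limit on the level at 20 °C, 4 members had the largest excess of the second step. Their mean FPKM was below the member median at all 3 temperatures. TraesCS6D02G248500.1 was at an FPKM of 2.10, 2.99 and 3.16 at 20 °C, at 4.42, 8.04 and 5.76 at 30 °C and at 28.7, 22.8 and 21.4 at 40 °C, with steps of 2.21-fold and 4.00-fold. TraesCS2B02G501900.1 was at 4.80, 3.83 and 5.13, then at 7.63, 7.88 and 12.6, and at 31.2, 35.9 and 24.6 at 40 °C, with steps of 2.04-fold and 3.26-fold. In both, the samples at 30 °C were spread widely, with an SD of their log2 FPKM of 0.43 and 0.41.

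TraesCS4D02G119400.1 was at an FPKM of 2.83, 2.79 and 2.80 at 20 °C, at 7.0, 6.95 and 6.24 at 30 °C and at 22.5, 29.2 and 24.4 at 40 °C, with steps of 2.40-fold and 3.77-fold. TraesCS4B02G172700.1 was at 2.78, 1.83 and 1.77, then at 5.01, 3.74 and 4.09, and at 13.5, 12.8 and 14.1 at 40 °C, with steps of 2.01-fold and 3.14-fold. The former had tight replicates at 20 and 30 °C and a wider spread at 40 °C (SD 3.49 on a mean of 25.4, n = 3). Its second step was the larger. In the latter the lowest sample at 30 °C lay close above the highest at 20 °C.

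At the limit of the rule the members and the transcripts left out were alike. Just inside it, TraesCS6D02G364400.1 was 2.002-fold higher in the second step, TraesCS2B02G112000.1 2.009-fold higher in the second step and TraesCS6B02G249700.2 2.007-fold higher in the first. Just outside it, TraesCS4B02G379500.1 and TraesCS2B02G419600.1 were both 1.997-fold higher in the second step and TraesCS4B02G268700.2 was 1.995-fold higher. The values of TraesCS4B02G379500.1 were 6.81, 7.46 and 6.17 at 20 °C, 24.9, 25.3 and 25.4 at 30 °C, and 54.6, 53.2 and 43.2 at 40 °C, and replicate 3 was the lowest of its samples at 40 °C.

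Some members had gene numbers near each other. A run was at least 3 member genes on 1 chromosome, each at most 1000 in gene number from the next, and other genes could lie between them. By this rule 3 runs were found, one each on 4A, 4B and 4D. The run on 4A went from TraesCS4A02G092100 to TraesCS4A02G092900, with 4 members among 9 genes. The run on 4B went from TraesCS4B02G211600 to TraesCS4B02G212300, with 4 members among 7 genes. The run on 4D went from TraesCS4D02G212200 to TraesCS4D02G213300, with 7 members among 11 genes. Of the 27 transcripts in the 3 runs, 22 were expressed at 20 °C under the rule and 15 were members. These 15 carried 18.1% of the members' TPM at 40 °C, and their median steps were 3.18 and 1.44. The other 61 members of group 4 lay outside these runs. RSEM divides fragments among similar sequences, so the levels of neighbouring copies are uncertain where their sequences are alike.

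The runs held 4 of the 6 most abundant members, one on 4A, 2 on 4B and one on 4D. The next highest on 4D was TraesCS4D02G212500.1, at an FPKM of 12.7, 17.7 and 12.7 at 20 °C, 152.4, 142.1 and 148.2 at 30 °C, and 812, 800 and 668 at 40 °C. On 4A, TraesCS4A02G092700.1 was at 37.5, 24.1 and 20.5, then at 244.0, 226.5 and 235.3, and at 784, 722 and 691 at 40 °C. Other members of the same runs stayed low. TraesCS4A02G092400.1 had a mean FPKM of 2.36, 5.03 and 13.7 at the 3 temperatures, TraesCS4B02G211900.1 of 2.44, 4.95 and 14.1, and TraesCS4D02G212700.1 of 1.66, 3.38 and 6.85. Each run thus held one member with a first step close to 2-fold beside members with much larger ones.

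Genes between the members behaved differently from each other. TraesCS4B02G211700.1 failed the rule only by its second step, with a mean FPKM of 16.1, 258 and 421 and a second ratio of 1.64. TraesCS4A02G092600.1 and TraesCS4A02G092800.1 were below the limit of 1 at 20 °C, with a mean FPKM of 0.243, 3.58 and 14.3 and of 0.373, 2.12 and 30.5. TraesCS4A02G092500.1 was level, with a mean FPKM of 6.06, 6.13 and 6.17, and so was TraesCS4B02G211800.1, with 3.49, 3.36 and 3.01. TraesCS4D02G212600.1 was lower in the heat, with 4.06, 2.80 and 2.82. These neighbours were chosen for mention after their values had been seen.

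**Figure D5:**
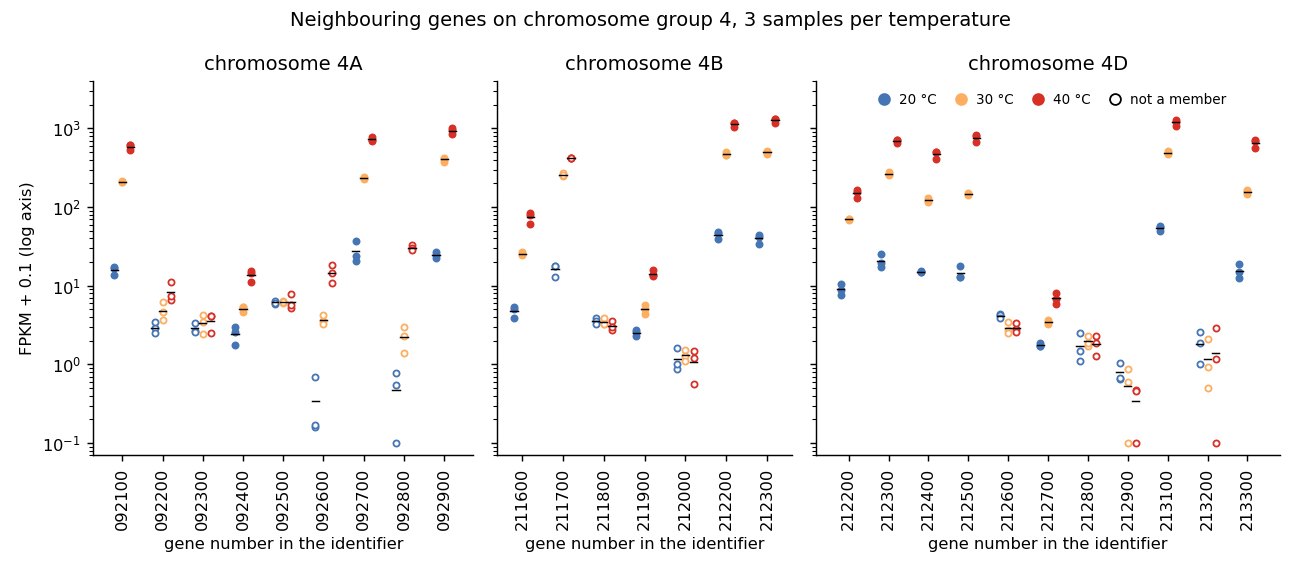
FPKM + 0.1 (vertical axis, log) of the genes in the 3 runs of chromosome group 4, in order of the gene number in the identifier (horizontal axis), with 1 point per sample and a bar at the mean. Filled points are members and open points are not. The 15 filled genes separate by temperature, as the rule required, and TraesCS4A02G092500.1 stays near 6 FPKM at every temperature.

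Length, number of transcripts and sharing of fragments were not used by the rule. The median length of the members was 1363 bases, with quartiles at 969 and 2138, against 1585 bases over the expressed transcripts, with quartiles at 1089 and 2236. The gene had a single transcript for 233 members (80.1%), against 71.8% of expressed transcripts. Expected counts that were whole in all 9 samples, within 0.005, were found for 8 members (2.75%) and for 6.50% of expressed transcripts. For the other members RSEM had divided fragments with similar transcripts. These shares were not compared at equal level, and the members' counts were higher in the heat. The 8 members with whole counts had median steps of 2.60 and 1.71, and the first step was larger in 6 of them. The depth behind the lowest values was limited, since the smallest expected count of a member in a sample at 20 °C was 3 and 51 members had a minimum below 30.

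When the FPKM of all transcripts of a gene was summed, 280 of the 288 genes were at least 2-fold higher at each step. In 233 of the 288 the gene had a single transcript, so the sum was the member itself and the rule had fixed the outcome. The other 55 genes had several transcripts, with the members' part of each sum chosen by the rule, and 47 of the 55 passed in this way. In the 58 members of such genes, the median share of the gene's abundance was 91.3% in the controls, 95% at 30 °C and 95.1% at 40 °C. The share was higher at 40 than at 20 °C in 28 of them, lower in 24 and equal in 6. In 3 genes 2 transcripts were members. One of these was TraesCS1B02G396000, where TraesCS1B02G396000.1 had a mean FPKM of 4.46 at 20 °C and 121.8 at 40 °C and TraesCS1B02G396000.3 one of 4.68 and 111.1.

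The members' genes had 81 other transcripts, 10 of which were listed at 0 in all samples. Of these, 14 had an FPKM of at least 1 in each sample at 20 °C. The rule was applied to these 14 as well and they failed it at one or both steps, so they are described here without a test, and RSEM may have divided fragments between them and the members. By the edgeR criterion 6 of the 14 were called higher at 30 than at 20 °C, 6 at 40 than at 30 °C and 12 at 40 than at 20 °C, and none was called lower. Over all transcripts tested 2.58%, 3.02% and 7.54% were called higher in these comparisons. With library size in place of TMM factors, 3 of the 14 were called at 40 against 30 °C, and leaving out single samples gave 4 to 7, 4 to 5 and 10 to 13 calls in these comparisons.

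Several of the 14 had the profile of the members and missed a limit. TraesCS2A02G548000.2 had an FPKM of 10.2, 13.2 and 12.0 at 20 °C, 24.9, 27.7 and 28.2 at 30 °C, and 50.9, 57.4 and 42.6 at 40 °C. TraesCS4A02G097900.1 had 5.73, 6.94 and 10.2 at 20 °C, 35.6, 32.2 and 32.8 at 30 °C, and 74.1, 62.7 and 60.5 at 40 °C. In both, no samples of neighbouring temperatures overlapped, and the second ratio of the means was 1.87 and 1.96.

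TraesCS1B02G297900.2 and TraesCS1A02G288500.3 were, among the 14, the transcripts called in no comparison. TraesCS1B02G297900.2 had an FPKM of 26.1, 24.8 and 27.3 at 20 °C, 42.5, 29.7 and 34.0 at 30 °C, and 18.7, 22.4 and 23.7 at 40 °C. The member of that gene, TraesCS1B02G297900.3, had 2.32, 3.01 and 1.66, then 18.0, 19.1 and 20.1, and 74.8, 93.6 and 68.8 at 40 °C. At 20 °C the member was thus the lower of these transcripts and at 40 °C the higher one. TraesCS1A02G288500.3 had a mean FPKM of 30.7, 49.0 and 53.3 at the 3 temperatures, and the member of its gene, TraesCS1A02G288500.2, had 6.84, 15.8 and 33.7.

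The rule was also applied with 1 replicate number left out, and the values of the replicate left out were read as a description. Samples with the same number came from different plants and are not pairs. A replicate left out is thus an arbitrary set of 1 sample per temperature from the same experiment. Without replicate 1 the rule chose 290 transcripts, of which 289 were higher at each step in replicate 1, against 24.8% of the expressed transcripts. Without replicate 2 it chose 266, of which 262 were higher at each step in replicate 2, against 19% (5270 of 27776). Without replicate 3 it chose 355, of which 348 were higher at each step in replicate 3, against 9.65%. At least 2-fold at each step in the replicate left out were 231, 235 and 200 of these, against 1.44%, 1.35% and 0.859% of the expressed transcripts. The larger of the steps in the replicate left out was the first one in 72.8%, 72.6% and 85.6%. In replicate 3 the second step fell short of 2-fold more often than the first, with 227 of the 355 transcripts at 2-fold or more in the second step and 313 in the first. The median second step there was 1.12, against 1.45 and 1.57 in replicates 1 and 2. Replicate 3 at 40 °C had a TMM factor of 0.832, and its part in these values was not tested. The expressed transcripts had not been chosen for a rise, so their shares are not a like-for-like comparison.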

How the data were processed

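RNA of filling wheat grains was sequenced in 9 samples, 3 plants at each of 20, 30 and 40 °C. The authors trimmed the reads with Trimmomatic, aligned them to the IWGSC v1.0 genome and quantified transcripts with RSEM. The authors deposited for each sample expected counts (estimated fragments, not normalized), TPM, FPKM and the percent of a gene's abundance per transcript. These length-corrected values depend on the other transcripts of a library, so a few abundant transcripts lower the rest. The submitters' processing notes name edgeR 3.24.3. The extraction text in the labels speaks of another tissue, while the tissue label and the paper's methods give grains.

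The members and lists were chosen with earlier results of these data known. Ratios are of mean FPKM with no pseudocount. A transcript called expressed here had an FPKM of at least 1 in each sample at 20 °C and lay outside chromosome groups 3 and 7. Whole numbers were made of the expected counts by rounding. Transcripts whose mean FPKM exceeded 1 in one or both groups were tested with edgeR 4.0.16 (R 4.3.3, TMM factors, glmQLFit and glmQLFTest) on the 6 samples compared, with no covariate. The FDR is the Benjamini-Hochberg adjusted p over all transcripts tested. The test was tried on simulated data first. The total expected count per sample was between 15778561 and 19497182, and low values carry counting error at this depth. Replicates differed by more than sampling noise (chi-square per degree of freedom 6.94 to 19.8).

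Transcripts named are the 6 highest at 40 °C, the 6 with the largest ratio of 40 to 20 °C, 4 with the largest excess of each step at a mean FPKM of at least 2 at 20 °C, 3 just inside and 3 just outside the limit of 2, and the highest member of each run of neighbours. Other transcripts of members' genes had been planned for testing, but the expressed ones had failed the rule and are only described. Others named were chosen after their values were seen. Keyword lists and marker genes could not be used, since 0 identifiers matched the RefSeq table. The genome, promoters and proteins were not used here. Alternatives were other limits, TPM, TMM-scaled FPKM, gene sums, a pseudocount of 1, a replicate block, library size scaling, DESeq2 1.42.0, no filter on low values, 1 model over all samples, and leaving out each sample.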

Additional observations from a re-analysis of the deposited data

How the results depend on the processing

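Over the alternatives the members kept a median first step above the median second step. With a ratio of 1.5 at each step the rule chose 625 transcripts, with median steps of 1.34 and 1.11 and a larger first step in 67.7%. With a ratio of 3 it chose 67, with 2.95, 1.91 and 86.6%. With an FPKM of 0.5 at 20 °C the median first step was 1.98 and the median FPKM at 20 °C 3.67. With an FPKM of 5 there were 140 members, a median first step of 2.60, a larger first step in 85.0% and a median FPKM of 10.9. With TMM-scaled FPKM the median first step was 1.98 and the median FPKM 5.45, and for the same 291 members, an alternative added after the data were seen, the first step was larger in 70.1%. With groups 3 and 7 kept in the median FPKM at 20 °C was 5.65. With a pseudocount of 1 the median first step was 1.87 and the first step was larger in 70.8%. TPM in place of FPKM gave 286 members, 282 of them shared.

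Leaving out samples or replicate numbers gave 266 to 355 members, a median first step of 1.93 to 2.29, a second of 1.32 to 1.41, a larger first step in 71.3% to 80.9%, and a median FPKM at 20 °C of 4.57 to 5.57. The A, B and D shares were 30.3% to 33.1%, 31.2% to 34.0% and 31.6% to 34.3%. All transcripts called numbered 906 to 2757 in 30 against 20 °C, 4405 to 5768 in 40 against 20 °C and 1098 to 1508 in 40 against 30 °C. Of the members 224 to 264, 291 to 291 and 271 to 281 were called, and of the other transcripts of their genes 6 to 14, 29 to 32 and 11 to 16. For 30 against 20 °C the count was 1784 with all samples, and 1088 and 958 without replicates 1 and 3 at 20 °C and 2757, 960 and 906 without replicates 1, 2 and 3 at 30 °C.

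Same-numbered samples did not deviate together (correlations of 0.14, 0.09 and 0.05 for 20 and 30 °C, and -0.02, 0.09 and -0.11 for 30 and 40 °C), so the numbers were not taken as pairs. With the replicate number as a block, 13 other transcripts of the members' genes were called in 40 against 30 °C, against 20 of 40 without it, and 1 model over all 9 samples also gave 13. Among the 14 of these expressed at 20 °C, the second-step count of 6 became 4 with the block and 3 with library size. Without replicate 1 at 20 °C or replicate 2 at 30 °C their first-step count of 6 was 4, and without any 1 replicate at 30 °C their second-step count was 4, as it was without replicate 2 at 40 °C. The block called 1946 of 45956, 1061 of 44638 and 4406 of 46250 transcripts in the first step, the second step and over both. Of the members it called 269, 274 and 291. Scaling by library size in place of TMM changed the split of higher and lower transcripts from 3485 and 2098 to 2959 and 3091 for 40 against 20 °C, and from 1349 and 238 to 1050 and 348 for 40 against 30 °C. DESeq2 called 276, 290 and 291 members in the first step, the second step and over both. Over all transcripts it called 2465 of 45899, 2061 of 43725 and 5986 of 46192 in the same order. Of 78 fold changes of named transcripts none reversed and 10 changed their call under at least 1 alternative. The count of promoter motifs was not run, since no promoter sequence could be matched to these identifiers.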
